A study of Homo sapiens with 20 samples.

Results

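The proteasome genes described here are 10 of the 43366 genes counted in RNA-seq libraries of U2OS cells, a human osteosarcoma line. They were taken by gene symbol and not by a cut-off on their values. The list was chosen with earlier results of these data known. It holds the interferon-inducible catalytic subunits PSMB8, PSMB9 and PSMB10 and their constitutive counterparts PSMB5, PSMB6 and PSMB7. The other members are the activator subunits PSME1, PSME2 and PSME3 and the assembly chaperone POMP. The study asked how the zinc finger protein ZBTB48 bears on the cellular response to IFNγ. RNA came from 5 WT clones and 5 ZBTB48 KO clones. Each clone was sequenced untreated (0 U/ml) and after 250 U/ml IFNγ for 24 h, which gave 4 groups of 5 libraries and 20 libraries in all. Every WT or KO line is 1 clone of the same parental cell line, so the replicates are clones and the p-values measure the spread between clones. The genotype labels are WT and ZBTB48 Knockout, and no other allele or agent is named for any group.

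The proteasome degrades ubiquitin-tagged proteins, and its barrel-shaped core carries proteolytic activity at the β1, β2 and β5 positions. In most cells these positions hold PSMB6 (β1), PSMB7 (β2) and PSMB5 (β5). IFNγ, acting in part through the transcription factor IRF1, induces PSMB9 (β1i), PSMB10 (β2i) and PSMB8 (β5i), which replace the constitutive subunits in newly built cores and form the immunoproteasome, an enzyme known for making peptides for MHC class I. PSME1 and PSME2 form the PA28αβ cap, PSME3 forms the nuclear PA28γ cap, and POMP escorts the assembling core. The counts measure mRNA only, and neither subunit protein nor assembled proteasome was measured here.

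All 10 genes were listed on GRCh38 with all exons on a single chromosome. PSMB8 (chr6:32840717-32844679, minus strand) and PSMB9 (chr6:32854192-32859851, plus strand) lie on either side of TAP1 (chr6:32845209-32853704, minus strand), which encodes a subunit of the peptide transporter of the MHC class I pathway. PSME1 (chr14:24136194-24138962, plus strand) and PSME2 (chr14:24143365-24146610, minus strand) are close neighbours, and PSMB5 (chr14:23025851-23035220, minus strand) lies on the same chromosome. PSMB10 (chr16:67934506-67936850, minus strand), PSMB6 (chr17:4796164-4798495, plus strand), PSMB7 (chr9:124353465-124415442, minus strand), PSME3 (chr17:42833397-42843760, plus strand) and POMP (chr13:28659130-28678959, plus strand) lie apart. PSMB7 shares 389 of its 984 exonic bases with LOC100129034 on the opposite strand, and PSMB8 shares 35 of its 1525 with PSMB8-AS1. The strand setting of the counting was not given in the sources used here, so PSMB7 counts are uncertain to that extent.

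Promoter sequence was available in RefSeq windows (GRCh38.p14, 250 bases before to 50 bases after a gene start) for 8 of the 10 members, and not for PSMB6 and PSMB7. The stretches below are shown because they hold the letters GAAANNGAAA or their reverse complement, the core of an interferon-stimulated response element (ISRE), which 3.57% of all 35116 promoter windows held when both strands were searched. Capitals mark the match, and each stretch reads 5′ to 3′ in the direction of its gene.
PSMB8, chr6:32844032-32844061, minus strand, at the second of its listed starts: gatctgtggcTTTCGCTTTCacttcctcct
PSMB10, chr16:67936852-67936881, minus strand: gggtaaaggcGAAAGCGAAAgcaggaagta
PSME1, chr14:24136189-24136218, plus strand: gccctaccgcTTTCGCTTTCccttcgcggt
PSME2, chr14:24146619-24146648, minus strand: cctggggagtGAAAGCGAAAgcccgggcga

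The match lay from −4 to 6 in PSMB8, from −21 to −12 in PSMB10, from 6 to 15 in PSME1 and from −28 to −19 in PSME2, with the first transcribed base counted as 1. The window of PSMB9 held no match. The 487 bases between the first bases of TAP1 and PSMB9, which point away from each other, held 2 overlapping matches that fell in the TAP1 window. They lay 119 bases from the start of TAP1 and 354 bases from that of PSMB9, and are shown on the plus strand, in the direction of PSMB9.
Between TAP1 and PSMB9, chr6:32853771-32853890, plus strand: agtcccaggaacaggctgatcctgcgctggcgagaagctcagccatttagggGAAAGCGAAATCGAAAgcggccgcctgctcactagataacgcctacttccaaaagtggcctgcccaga

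No window of PSMB5, PSME3 or POMP held GAAANNGAAA on either strand. TTCNNNGAA, the palindromic core of a gamma-activated site, was in 7.66% of all windows, and among the members it was in windows of PSMB8, PSMB5 and PSME3. TGACNNNGC, the core of an antioxidant response element, was in 13.3% of all windows and in those of PSMB9, PSME1 and PSME2. A match describes letters in a window and was not tested for binding or for effect.

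The libraries held 46652288 to 72952859 counted reads, and a floor of 3 counts stood at 0.0411 to 0.0643 CPM, the depth-scaled count used for levels of a gene across libraries. MTFP1, a gene known to depend on ZBTB48, lay between 27.1 and 52.1 CPM in the WT libraries and between 0.222 and 0.939 CPM in all 10 libraries labelled KO. ZBTB48 mRNA lay between 8.05 and 11.7 CPM in WT libraries and between 1.27 and 5.17 CPM in 8 of the libraries labelled KO, but the library labelled KO replicate 3 held 11.3 CPM untreated and 15.97 CPM treated. The libraries labelled KO replicates 4 and 5 did not pair with their own numbers: over 13260 genes the deviations of untreated and treated libraries of the same number correlated at 0.0104 and 0.0938, against 0.684 to 0.894 for the other 8 clones. Each matched the other number instead: untreated KO replicate 4 correlated with treated replicate 5 at 0.772, and untreated replicate 5 with treated replicate 4 at 0.859. Summed mesenchymal and osteoblast-lineage markers lay between 2891 and 10489 CPM. The 6 leukocyte markers, from cells that carry immunoproteasome without IFNγ, summed to at most 1.72 CPM in any library. Summed stress and handling genes lay between 1532 and 4213 CPM in untreated and between 1067 and 1861 CPM in treated libraries, and their part in the IFNγ responses was not tested.

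IFNγ raised 5 of the 10 members in WT clones. These were the 3 inducible catalytic subunits and both PA28αβ subunits: PSMB9 was 29.9-fold higher, PSMB10 13.9-fold, PSMB8 7.0-fold, PSME2 4.67-fold and PSME1 4.50-fold. The 3 constitutive catalytic subunits, PSME3 and POMP were not called. A gene was called at an adjusted p under 0.01 and more than 2-fold (edgeR's quasi-likelihood test, Benjamini-Hochberg over all genes), a rule that 2.48% of the 19522 genes tested passed as higher after IFNγ. The same 5 members were called in the clones labelled KO, where 1.7% of 19385 genes passed as higher. Scaled within each comparison, treated libraries lay above untreated ones without overlap for these 5 members and POMP, which 6.87% of all genes did in WT and 6.08% in KO. With the clone as a block, WT libraries gave 1414 called genes in place of 585 in either direction, and the libraries labelled KO gave 721 in place of 379. Without KO replicates 4 and 5, whose numbers did not pair, the block gave 306 in KO.

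PSMB9 (β1i) had the largest change of the 10 members in both edgeR fits, but PSMB10 changed more under DESeq2's normal shrinkage. In untreated WT clones it stood at 11.03, 15.4, 25.5, 18.9 and 2.57 CPM for replicates 1 to 5, and after IFNγ at 401, 433, 458, 535 and 388 CPM. In the clones labelled KO it went from 21.8, 0.626, 15.95, 11.8 and 11.4 CPM to 440.1, 466, 478, 449 and 389 CPM. Every treated library was above every untreated library, and the lowest untreated values belonged to WT replicate 5 and KO replicate 2. The log2 fold change was 4.90 (SE 0.49, adjusted p = 9.54e-05) in WT and 5.16 (SE 0.67, adjusted p = 0.00116) in KO by edgeR's quasi-likelihood test. The KO call was lost without KO replicate 3, 4 or 5 (adjusted p = 0.0135, 0.0172 and 0.0157), and with the clone as a block and KO replicates 4 and 5 left out (5.73, adjusted p = 0.109).

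PSMB8 (β5i) had 52.2, 55.3, 71.2, 58.2 and 21.7 CPM in untreated WT clones and 353, 407, 440.4, 361 and 269 CPM after IFNγ. In the clones labelled KO the values were 56.7, 17.0, 62.5, 52.7 and 55.3 CPM before and 369, 354, 370.5, 422 and 378 CPM after. WT replicate 5 and KO replicate 2 were again the lowest untreated libraries, and the groups did not overlap. PSMB8 rose by a log2 fold change of 2.81 (SE 0.27, adjusted p = 7.52e-05) in WT and 2.95 (SE 0.30, adjusted p = 0.00018) in KO by edgeR's quasi-likelihood test. With the clone as a block and KO replicates 4 and 5 left out, the latter had an adjusted p of 0.0247 and was not called.

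PSMB10 (β2i) varied less between untreated clones than PSMB8 and PSMB9 did, in WT and in KO. In WT it went from 20.3, 22.2, 22.3, 18.7 and 19.7 CPM to 295, 284, 333, 258 and 278 CPM. In KO it went from 24.8, 16.6, 28.1, 24.1 and 23.7 CPM to 293, 261, 323, 352 and 317 CPM. The treated libraries were all above the untreated ones, with KO replicate 2 lowest in its group before and after IFNγ. The log2 fold change was 3.80 (SE 0.11, adjusted p = 4.58e-09) in WT and 3.72 (SE 0.16, adjusted p = 3.18e-07) in KO (edgeR).

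The PA28αβ subunits changed by like amounts. PSME1 (PA28α) had 123, 135, 141, 119 and 108 CPM in untreated WT clones and 558, 610.0, 625, 498 and 553 CPM after IFNγ, and PSME2 (PA28β) had 82.8, 89.1, 87.3, 78.8 and 80.5 CPM before and 368, 429, 428, 339 and 407 CPM after. In the clones labelled KO, PSME1 went from 103, 89.3, 142, 148 and 107 CPM to 412, 515, 538, 432 and 572 CPM. PSME2 went from 66.5, 62.3, 106, 103 and 67.0 CPM to 283, 372, 388, 287 and 394 CPM. Treated and untreated libraries did not overlap for either gene, and in both genes untreated KO replicates 3 and 4 were above the other 3 KO clones. The log2 fold changes of PSME1 were 2.17 (SE 0.11, adjusted p = 4.14e-07) and 2.07 (SE 0.17, adjusted p = 3.22e-05), and those of PSME2 were 2.22 (SE 0.10, adjusted p = 2.48e-07) and 2.09 (SE 0.19, adjusted p = 8.09e-05), in WT and KO by edgeR.

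**Figure D1:**
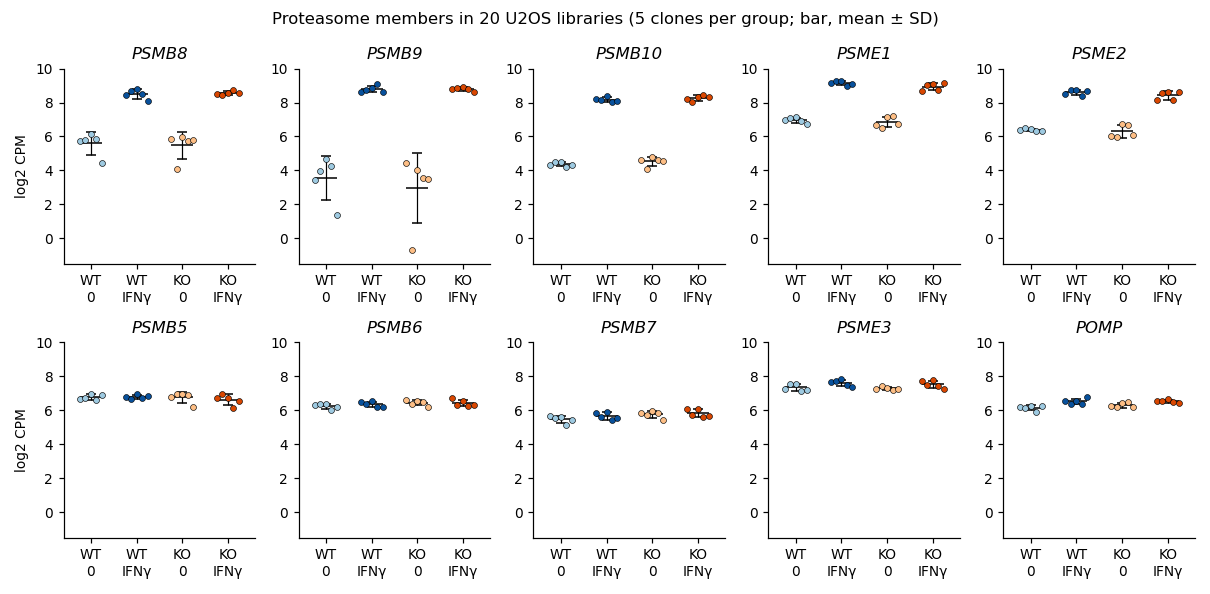
Expression of the 10 members in each of the 20 libraries, as log2 CPM, with the 5 clones of each group as points from replicate 1 to 5 (left to right) and the group mean ± SD as a bar. PSMB8, PSMB9, PSMB10, PSME1 and PSME2 lie higher in every treated library, and the low untreated points of PSMB8 and PSMB9 are WT replicate 5 and KO replicate 2.

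The constitutive catalytic subunits were not called, and in the edgeR fits without the clone as a block none passed an adjusted p under 0.05. PSMB5 (β5) had 101, 107, 126, 98.9 and 121 CPM in untreated and 111, 101, 126, 106 and 117 CPM in treated WT clones, and its log2 fold change was 0.01 (95% interval −0.22 to 0.24). In KO it was 109, 124, 125, 120.5 and 73.5 CPM before and 105, 127, 106, 70.04 and 93.3 CPM after (log2 fold change −0.14, interval −0.53 to 0.26). The low values belonged to untreated KO replicate 5 and treated KO replicate 4. PSMB6 (β1) ranged from 64.8 to 81.8 CPM untreated and from 72.4 to 92.4 CPM treated in WT, and from 74.4 to 97.6 CPM and 77.1 to 105 CPM in KO. Its log2 fold changes were 0.10 (interval −0.13 to 0.32) in WT and −0.02 (interval −0.28 to 0.24) in KO, so a doubling lay outside both intervals.

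PSMB7 (β2) ranged from 35.3 to 50.6 CPM in untreated and from 42.8 to 60.6 CPM in treated WT clones. In KO the ranges were 43.9 to 62.3 CPM and 48.0 to 68.7 CPM. The groups overlapped, and the log2 fold changes were 0.18 (interval −0.10 to 0.46) in WT and 0.07 (interval −0.23 to 0.37) in KO. With the clone as a block, PSMB7 in WT had an adjusted p of 0.0132 at a log2 fold change of 0.18, and all 5 clones were higher after IFNγ. LOC100129034, which overlaps its exons on the other strand, had 26.8 to 57.5 CPM across the 20 libraries.

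POMP, the core assembly chaperone, had 72.4, 69.8, 76.3, 60.3 and 77.4 CPM in untreated and 92.7, 84.6, 93.1, 84.1 and 108 CPM in treated WT clones. In KO it had 75.7, 72.0, 86.1, 88.7 and 72.1 CPM before and 94.8, 92.4, 100.5, 89.5 and 87.3 CPM after. The WT groups did not overlap. In these CPM, scaled over all 20 libraries, treated KO replicate 5 lay below untreated KO replicate 4, although the KO groups did not overlap when scaled over their own 10 libraries. The log2 fold change was 0.37 (SE 0.11, adjusted p = 0.0563) in WT and 0.23 (SE 0.09, adjusted p = 0.163) in KO by edgeR, and in WT with the clone as a block it was 0.36 with an adjusted p of 0.000134.

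PSME3 (PA28γ) ranged from 140.4 to 191 CPM untreated and from 167 to 231 CPM treated in WT. In KO it ranged from 148 to 172 CPM and from 150.5 to 218 CPM. The groups overlapped in both, with log2 fold changes of 0.26 (adjusted p = 0.191) and 0.24 (adjusted p = 0.233) by edgeR. In WT with the clone as a block the adjusted p was 0.000914 at a log2 fold change of 0.26. Under the block, 8 of 10 members passed an adjusted p under 0.05 as higher in WT, beside 22.9% of all genes. Without the block 5 passed in WT, beside 6.98% of all genes. In KO 5 passed under the block, beside 11.1% of all genes, and 4 without KO replicates 4 and 5, beside 7.68%. POMP (adjusted p = 0.0712), PSME3 (0.123) and PSMB7 (0.667) did not pass in the KO block of all 5 clones (edgeR).

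Per exonic base, in TPM (a count scaled to length and depth, which allows genes to be compared), the order of the members changed with IFNγ. In untreated WT clones PSME1 (311 ± 35.5 TPM, SD, n = 5), PSME2 (258 ± 12.9), PSMB6 (255 ± 20.9) and PSMB5 (253 ± 30.9) came first, and neighbours in that order overlapped. POMP (151 ± 14.2), PSMB7 (129 ± 16.6) and PSME3 (127 ± 16.9) followed, and PSMB8 (96.5 ± 35.8), PSMB10 (59.8 ± 4.37) and PSMB9 (41.3 ± 25.1) came last. Only the step from PSMB5 to POMP separated neighbours whose ranges did not overlap.

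In treated WT clones the 5 called members held the first 5 places. PSME1 stood at 1333 ± 126 TPM, PSMB9 at 1166 ± 182, PSME2 at 1148 ± 122, PSMB10 at 792 ± 85.6 and PSMB8 at 642 ± 122 TPM (SD, n = 5). PSMB6 followed at 260.0 ± 29.1 TPM, below every value of PSMB8, and then PSMB5 at 242 ± 25.4, POMP at 185 ± 19.7, PSME3 at 146 ± 19.5 and PSMB7 at 140 ± 21.0 TPM. Neighbours overlapped except PSME2 with PSMB10 and PSMB8 with PSMB6. Treated KO clones had the same 5 genes first, led by PSMB9 at 1164 ± 40.9 TPM and PSME1 at 1157 ± 179 TPM, which overlapped, and only PSMB8 and PSMB6 were separated.

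The balance within each catalytic position turned over in every clone. At the β1 position PSMB9 made up 10.4%, 13.5%, 20.6%, 19.5% and 2.83% of PSMB9 plus PSMB6 mRNA per length in untreated WT clones, and 79.0%, 81.0%, 80.4%, 86.0% and 81.5% after IFNγ. In KO its share went from 15.7%, 0.613%, 12.4%, 9.78% and 11.3% to 77.7%, 82.7%, 81.1%, 82.9% and 80.2%. No untreated library reached the share of any treated one.

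At the β2 position PSMB10 made up 28.8%, 32.6%, 31.2%, 34.8% and 31.4% of PSMB10 plus PSMB7 in untreated WT clones and 83.6%, 85.4%, 84.7%, 85.8% and 85.7% after IFNγ. In KO the share went from 30.5%, 24.3%, 31.2%, 29.8% and 35.2% to 81.6%, 83.4%, 82.5%, 88.1% and 86.1%. This pair had the smallest spread between untreated WT clones (31.8% ± 2.19, SD, n = 5, against 13.4% ± 7.25 at β1 and 27.2% ± 8.14 at β5). The β2 shares, and the place of PSMB7 in the order of TPM, carry the uncertainty of PSMB7 counts where its exons overlap LOC100129034.

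At the β5 position PSMB8 made up 29.6%, 29.5%, 31.5%, 32.4% and 12.8% of PSMB8 plus PSMB5 in untreated WT clones, and 72.2%, 76.6%, 73.99%, 73.5% and 65.2% after IFNγ. In KO it made up 29.8%, 10.0%, 29.0%, 26.3% and 38.0% before and 74.1%, 69.4%, 73.9%, 83.1% and 76.8% after. The inducible mRNA was the minority in all 10 untreated and the majority in all 10 treated libraries at each of the 3 positions.

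The log2 ratio of inducible to constitutive mRNA rose in WT by 5.14 at β1, 3.61 at β2 and 2.89 at β5, and in KO by 5.84, 3.67 and 3.22. Each of the 6 differences had an exact permutation p of 0.00794 (two-sided, 5 against 5 libraries), the smallest that free exchange of libraries allows. After Benjamini-Hochberg adjustment over the 15 contrasts tested it was 0.0198. This test does not use the pairing of treated and untreated libraries by clone. An exact sign-flip permutation test over 5 responses within clones gave p = 0.0625 for each difference, the smallest which that test allows. The remaining 9 contrasts compared WT with KO, and none passed, with exact p from 0.302 to 0.77 and adjusted p from 0.646. The ratio of PSME1 to PSME2 stayed between 1.08 and 1.30 in all 20 libraries, and its 5 contrasts had exact permutation p from 0.381 to 0.81.

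**Figure D2:**
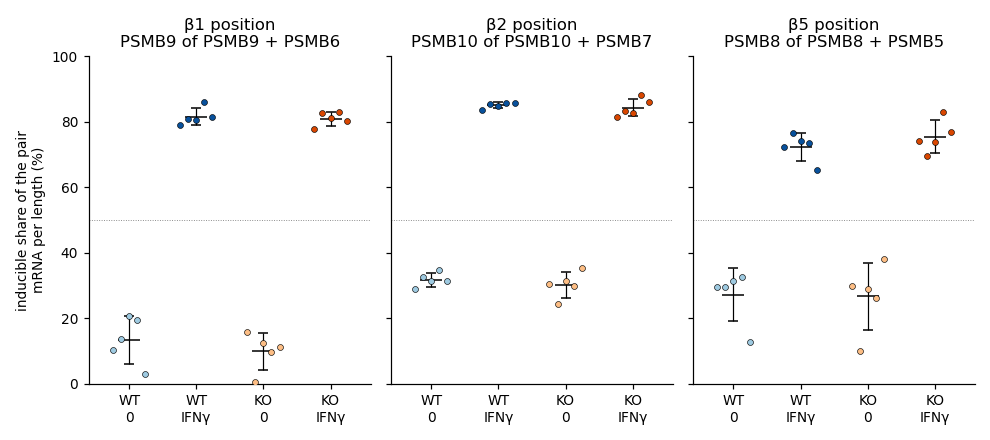
Share of the inducible subunit in the summed mRNA of each catalytic pair (percent of TPM, y axis from 0 to 100), per library, with the group mean ± SD as a bar and 50% as a dotted line. All 10 untreated libraries lie below the line and all 10 treated libraries above it at each of the β1, β2 and β5 positions.

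WT and KO clones were compared directly in each condition, which asks whether the clones labelled KO express the members at another level. No member was called. The rule was passed by 0.0154% of 19505 genes untreated (3 genes) and 0.0155% of 19383 genes treated (3 genes), and DESeq2 without shrinkage called 12 and 16 genes. In untreated libraries the lowest unadjusted p was that of PSMB7, with WT lower by a log2 difference of −0.27 (interval −0.55 to 0.01, unadjusted p = 0.0558, adjusted p = 0.98, edgeR).

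The interval of the untreated difference was widest for PSMB9, at 0.25 (−1.30 to 1.80) on the log2 scale, and for PSMB8, at 0.09 (−0.69 to 0.86). Without WT replicate 5 and KO replicate 2 these differences were 0.22 and 0.06. After IFNγ the intervals were narrower, with PSMB9 at −0.02 (−0.27 to 0.24), PSMB8 at −0.06 (−0.36 to 0.23), PSMB10 at −0.11 (−0.37 to 0.16), PSME1 at 0.19 (−0.10 to 0.48) and PSME2 at 0.18 (−0.13 to 0.49). These 5 treated intervals all held 0 and lay between −0.37 and 0.49.

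Whether WT and KO clones responded to IFNγ by unequal amounts was tested as an interaction over all 20 libraries, and 0% of 21052 genes were called (0 genes, with 86 at an unadjusted p under 0.05, and 0 by DESeq2). The estimates for the members lay between −0.28 for PSMB9 (interval −1.86 to 1.31) and 0.13 for PSMB5 (interval −0.31 to 0.57), all with adjusted p = 1.00 (edgeR). For PSMB10 the interval was −0.29 to 0.42, for PSME1 −0.31 to 0.48 and for PSME2 −0.32 to 0.55. The IFNγ comparisons within WT and within KO clones share no library. The interaction fit behind these estimates held no term for the clone, although treated and untreated libraries share clones. Spread between clones thus stays in its p-values and intervals. With the clone as a block, 0 genes were called, with 317 at an unadjusted p under 0.05 (edgeR). Without KO replicates 4 and 5 the block also called 0 genes, with 576 at that level.

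**Figure D3:**
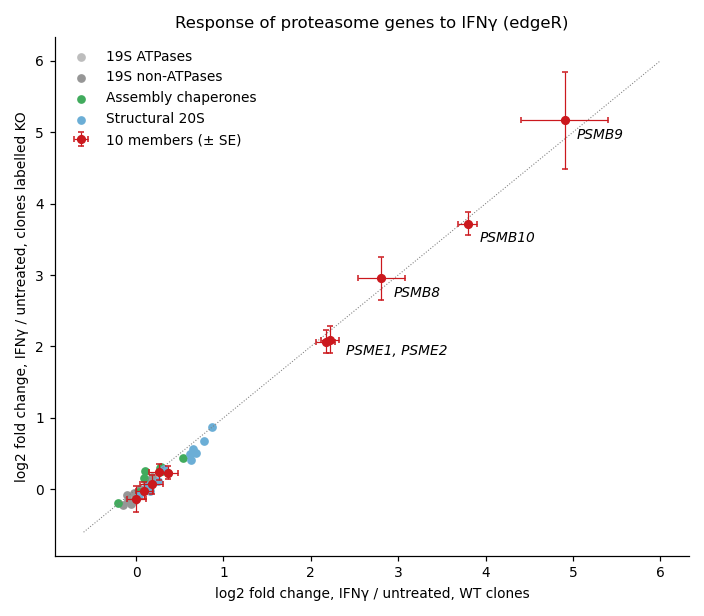
Log2 fold change after IFNγ in WT clones (x axis) and in clones labelled KO (y axis) for the 10 members (red, ± SE), structural core subunits (blue), assembly chaperones (green) and regulatory particle subunits (grey), with the line of equal change dotted. PSMB9, PSMB10, PSMB8, PSME1 and PSME2 stand at log2 values of 2.07 or more on both axes, and the other proteasome genes stay under 0.87.

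Clones spread more widely in PSMB9 and PSMB8 before IFNγ than after it. Across the 10 untreated libraries the highest PSMB9 value was 40.8 times the lowest, and across the 10 treated libraries 1.38 times. For PSMB8 these figures were 4.19 and 1.64, and for TAP1, which lies between both genes, 2.84 and 1.42. PSMB10 on its own chromosome spanned 1.69 times before and 1.37 times after, and PSMB5, which was not called, 1.72 and 1.82 times.

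The same pair of clones was low in the neighbouring genes of the MHC region. In untreated WT replicate 5 and KO replicate 2, TAP1 stood at 23.8 and 20.8 CPM, while the other 8 untreated libraries lay between 33.6 and 59.2 CPM. PSMB8-AS1 stood at 0.643 and 0.242 CPM, with 0.825 CPM or more elsewhere. IRF1, a transcription factor that drives these genes, had 17.0 CPM in WT replicate 5, within the 15.4 to 18.8 CPM of the WT group, and 9.71 CPM in KO replicate 2, below the 15.1 to 27.5 CPM of the other KO clones. NLRC5, a transactivator of MHC class I genes, had 11.7 CPM in WT replicate 5, within its group, and 5.43 CPM in KO replicate 2, the lowest of its group. Whether these factors bear on the low clones was not tested. Outside the MHC region, untreated PSME1 was also lowest of its group in WT replicate 5 (107.7 CPM) and KO replicate 2 (89.3 CPM). Untreated PSMB10 was lowest of its group in KO replicate 2 (16.6 CPM) but not in WT replicate 5 (19.7 CPM).

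Measured within clones, the log2 response of PSMB9 was 5.18, 4.81, 4.16, 4.82 and 7.24 in WT replicates 1 to 5 and 4.33, 9.54, 4.91, 5.26 and 5.09 in KO. The 2 clones that started low had the largest responses, and KO replicate 2 rested on 31 counts before IFNγ. Each response subtracts the untreated value by which these 2 clones were singled out. Their larger responses of PSMB9 and PSMB8 are thus not a separate result. The responses of PSMB8 in these clones were 3.63 and 4.38, against 2.57 to 2.999 in the other 8. For PSMB10 all 10 responses lay between 3.52 and 3.98. The KO replicates 4 and 5 enter these values under their labels, although each untreated library matched the treated library of the other number, so these responses may be between different clones.

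**Figure D4:**
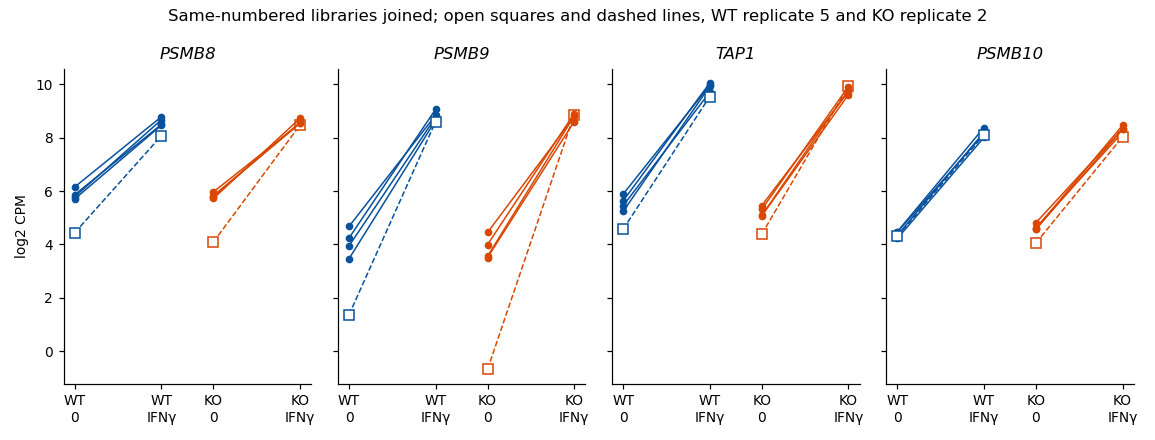
Log2 CPM of PSMB8, PSMB9, TAP1 and PSMB10 before and after IFNγ, with libraries of the same clone label joined by a line (WT blue, KO orange; the lines of KO replicates 4 and 5 join libraries that did not correlate) and WT replicate 5 and KO replicate 2 drawn as open squares with dashed lines. Both clones start below the others for PSMB8, PSMB9 and TAP1, and after IFNγ the 10 PSMB9 values lie between 388 and 535 CPM.

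The other proteasome genes changed less than the induced members. Among 11 structural subunits of the core, which carry no proteolytic site, 0 were called in either IFNγ comparison, while at an adjusted p under 0.05 (edgeR) 5 rose in WT, beside 6.98% of all genes, and 4 in KO, beside 5.41%. The median log2 fold change of the 11 was 0.61 in WT and 0.42 in KO, against −0.03 over all genes in both. PSMA4 had 0.87 in both, PSMA6 0.78 in WT and 0.67 in KO, and PSMA5 0.61 and 0.50, and these 3 subunits of the outer α rings passed in both. PSMB2 (0.63) and PSMA3 (0.69) passed in WT and PSMA1 (0.56) in KO, a difference that was not called by the interaction test. With the clone as a block 10 of 11 passed in WT, beside 22.9% of all genes, and 5 in KO, beside 11.1%. Without KO replicates 4 and 5 the block left 4 in KO, beside 7.68% of all genes. In the fit without the block, leaving out 1 KO clone at a time left 1 or 2.

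The regulatory particle that unfolds substrates was represented by 6 ATPases and 13 other subunits. Without the block, none passed an adjusted p under 0.05 in WT or KO by edgeR. The median log2 fold changes of the ATPases and the other subunits were 0.05 and 0.04 in WT and −0.02 and −0.04 in KO. With the clone as a block, 2 ATPases and 5 other subunits passed as higher in WT, beside 22.9% of all genes. In WT 1 other subunit passed as lower, and none passed under the block in KO. Of 8 further assembly chaperones 0 passed without the block, with medians of 0.19 and 0.26 in WT and KO. With it 4 passed as higher and 1 as lower in WT, and 1 passed as higher in KO, beside 11.1% of all genes. PSMF1, a proteasome inhibitor, had a log2 fold change of 0.39 in WT (adjusted p = 0.0221, edgeR) and 0.30 in KO (adjusted p = 0.387, edgeR). In WT it no longer passed with any 1 WT clone left out, without the filter, or in 1 fit of all 20 libraries. The activator PSME4 and the adaptor ECPAS did not pass without the block. Under the block 2 of these 3 genes passed as higher in WT, beside 22.9% of all genes, and 0 in KO. The tissue-restricted subunits PSMB11 and PSMA8 were too low to be tested.

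Transcription factors of the 2 subunit sets were measured in the same libraries. IRF1 and NLRC5 were called in both IFNγ comparisons, with log2 fold changes of 4.96 and 3.69 in WT and 4.72 and 3.77 in KO. NFE2L2, which drives constitutive proteasome genes under oxidative stress, was called at 1.11 in WT and 1.17 in KO. NFE2L1, the factor of the bounce-back response to proteasome inhibition, had 0.22 and 0.26 and was not called.

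The genes most like each catalytic subunit were ranked by Pearson's r of log2 CPM over the 20 libraries, which describes these libraries, most of whose spread is IFNγ for the induced genes. PSMB8 was most like PLAAT4 (r = 0.993), PSMB9 (0.991) and GBP2 (0.988), and PSMB9 was most like PSMB8, APOL1 (0.990) and IFIH1 (0.987). PSMB10 was most like IRF1 (0.995), USP30-AS1 (0.993) and GBP5 (0.992). The constitutive subunits PSMB6 and PSMB7 were most like each other (0.920), followed by AIMP2 (0.881) and ECSIT (0.878) for PSMB6 and NAA10 (0.887) and OSGEP (0.878) for PSMB7. PSMB5 was most like TRMT2B (0.894), EMC3 (0.892) and ZFP82 (0.878).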

How the data were processed

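RNA-seq (stranded mRNA) had been made from 20 U2OS libraries, 5 clones in each group. The deposited values were raw counts per gene: per the labels and the study's methods the authors aligned reads with STAR 2.7.9a to GRCh38, kept unique mappers and counted them with featureCounts 2.4.0 against RefSeq annotation. Multi-mapping reads were thus left out, which lowers near-identical genes. Counts were tested here with edgeR 4.0.16 (R 4.3.3; TMM factors, filterByExpr, robust quasi-likelihood test) on the 10 libraries of each comparison, and on all 20 for the interaction. CPM used TMM factors over 20 libraries, and TPM used the deposited exonic lengths. Single values were compared by two-sided exact permutation tests (scipy), each group of 5 giving 252 arrangements. Alternatives were other scalings, DESeq2 1.42.0, no filter, a clone block and clones left out. Same-numbered libraries came from the same clone per the labels; deviations correlated at 0.796 to 0.894 in WT, and at 0.78, 0.833, 0.684, 0.0104 and 0.0938 in KO. The named genes were the members, list genes called, the 3 genes most like each catalytic subunit, ZBTB48, MTFP1 and overlapping genes; TAP1, other list genes given with values and the genes of the untreated ranking were named after their values were seen. 1 list gene is not reported here. The members and lists were chosen with earlier results of these data known. On simulated counts of the WT IFNγ comparison (19108 genes) 49 of 100 genes changed by log2 1 and 88 of 100 changed by log2 2 were recovered. On simulated counts of WT against KO after IFNγ (18985 genes) these were 37 of 100 and 86 of 100. Recovery was counted at an adjusted p under 0.05 at any fold, a looser rule than that of a call. Depth ran from 46652288 to 72952859 counts; floors cover counting error only.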

Additional observations from a re-analysis of the deposited data

Results flagged for a closer look

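In 56 groups of 5 values (members in CPM and ratios of TPM, on the log2 scale), 6 held a library whose gap to the next exceeded 0.71 of the group's range. Chance alone would give about 2.8 if the groups were independent. They are not, since the ratios reuse values of the members, so the 6 cannot be weighed against that number. Untreated WT replicate 5 was low for PSMB8 (21.7 CPM) and for the PSMB8 to PSMB5 ratio (0.147). Untreated KO replicate 2 was low for PSMB8 (17.0 CPM), for PSMB9 (0.626 CPM) and for the PSMB9 to PSMB6 ratio (0.00617). Untreated KO replicate 5 was low for PSMB5 (73.5 CPM), and it is among the libraries whose numbers did not pair.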

How the results depend on the processing

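The 5 induced members kept direction and call in WT under all 65 alternative values and in KO under 65 of 70. The 5 lost calls were PSMB9 without KO replicate 3, 4 or 5 and PSMB8 and PSMB9 under the clone block without KO replicates 4 and 5. DESeq2's normal shrinkage lowered the log2 fold change of PSMB9 to 3.14 in WT and 2.53 in KO. These lay below the 3.69 and 3.47 of PSMB10, so the order of these members changed. The shrinkage was not run for the interaction. Alternative values for members that were not called turned sign in 4 of 65 cases for WT after IFNγ, 1 of 70 for KO after IFNγ, 11 of 190 for untreated WT against KO, 7 of 180 for WT against KO after IFNγ and 11 of 180 for the interaction, and none of them crossed the threshold. Scaling by library totals moved the median log2 fold change by under 0.1.

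For genes called in WT (585), the count was 2202 at an adjusted p under 0.05 at any fold, 976 with DESeq2 and 1414 with the clone as a block. In KO (379) these were 1528, 823 and 721 (306 for the block without KO replicates 4 and 5), with 613 under shrinkage and 642 from all 20 libraries in 1 fit. For WT against KO untreated (3) the counts were 6, 12 and 1 in that order, and 5 under shrinkage, without a filter and from all 20 libraries. For WT against KO after IFNγ (3), DESeq2 gave 16, shrinkage 6, no filter 5 and all 20 libraries 6. WT and KO clones share only a replicate number, so the block between them pairs unrelated clones. Leaving out 1 clone gave 318 to 457 calls in WT (355 without replicate 1 and 318 without replicate 2), 131 to 490 in KO (167, 160, 131 and 142 without replicates 1, 3, 4 and 5) and 3 to 5 for WT against KO after IFNγ (5 without KO replicate 1). The cause was not tested.

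Within clones, an exact sign-flip permutation test over 5 responses cannot go below p = 0.0625. With this clone block the 3 ratios in the order β1, β2, β5 had mean responses of 5.14, 3.61 and 2.89 in WT and 5.84, 3.67 and 3.22 in KO, all at that p. Without KO replicates 4 and 5 they were 6.25, 3.56 and 3.30 in KO, at p = 0.1, the smallest that exact permutation of 3 against 3 libraries allows, and the response of WT minus that of KO at β2 was 0.052.

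Signs turned only in differences that were not called. In WT after IFNγ, PSMB5 had −0.065 with library totals, −0.011 from all 20 libraries and −0.013 to 0.026 with 1 clone left out, and in KO PSMB6 had −0.045 to 0.023. For the interaction PSME3 had −0.032 under the block without KO replicates 4 and 5 and −0.023 without WT replicate 5 and KO replicate 2, which also gave −0.014 for PSME2 in untreated WT against KO. With 1 clone left out, untreated WT minus KO ran from −0.134 to 0.281 for PSMB8, −0.057 to 0.568 for PSMB9, −0.027 to 0.171 for PSME2 and −0.0997 to 0.061 for PSMB5. After IFNγ it ran from −0.140 to 0.022 for PSMB8, −0.090 to 0.025 for PSMB9 and −0.089 to 0.020 for POMP. The interaction ran from −0.275 to 0.032 for PSMB8, −0.597 to 0.043 for PSMB9, −0.044 to 0.193 for PSME1, −0.036 to 0.243 for PSME2, −0.0052 to 0.230 for PSMB5 and −0.044 to 0.065 for PSME3.

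For the log2 ratios with 1 clone left out, WT minus KO ran untreated from −0.311 to 0.405 at β5, −0.121 to 1.31 at β1 and −0.011 to 0.062 for PSME1 to PSME2. After IFNγ it ran from −0.045 to 0.132 at β1, −0.014 to 0.170 at β2 and −0.0098 to 0.030 for PSME1 to PSME2. The difference between responses ran from −1.23 to 0.231 at β1, −0.133 to 0.064 at β2 and −0.039 to 0.011 for PSME1 to PSME2.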

Other observations

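Over the 10 untreated libraries alone, a set chosen after seeing the data, PSMB8 was most like BTN3A2 (r = 0.982), BTN3A1 (0.981) and PLAAT4 (0.978). PSMB9 was most like PSMB8 (0.975), BTN3A2 (0.968) and LINC03025 (0.967). PSMB10 was most like RHOV (0.945), DCDC2C (0.944) and RGS17 (0.943). PSMB6 was most like CCT6P1 (0.967) and then PSMB7 (0.949), and PSMB7 was most like PSMB6. PSMB5 was most like CSTF2 (0.941), PRMT5 (0.935) and CT66 (0.928). The libraries share no clone, and these values describe 10 libraries.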
